A study of Mus musculus with 8 samples.

Results

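Oligodendrocytes are the cells that wrap axons of the brain in myelin, and 9 genes that mark them or their precursors are described here across the weeks after status epilepticus, a prolonged seizure state. The members were taken by name from the deposited table: Mbp, Mog, Mag, Mobp, Cnp, Cldn11, Olig1, Olig2 and Sox10. They make up 9 of 20258 genes, 19 RefSeq transcripts and 21 of 29112 rows that name a gene, because Mbp is listed as 8 transcripts on 9 rows, Mobp as 3 on 4 and Cnp as 2 on 2. The samples were hippocampi of C57BL/6 mice, taken as control tissue at a time point given as zero or at 12 h, 10 d and 6 wk after the induction of status epilepticus. Each of the 4 groups had 2 libraries of polyadenylated RNA, and each library pooled cDNA from 2 animals. The labels do not say how the seizures were induced, what the controls received, or the sex and age of the mice. Each time was compared with control.

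Myelin is a stack of oligodendrocyte membrane. Myelin basic protein (Mbp) and myelin-associated oligodendrocytic basic protein (Mobp) lie in its compacted layers, the enzyme and scaffold CNPase (Cnp) keeps cytoplasmic channels open in it, claudin 11 (Cldn11) seals the sheath with tight junctions, Mag sits next to the axon and Mog on the outermost surface. Olig1, Olig2 and Sox10 are transcription factors of the lineage: Olig2 and Sox10 act from the precursor stage onwards, and Olig1 is best known in mouse for its role in maturation and remyelination. In hippocampus these cells lie mainly in the fibre tracts and among the axons of the molecular layers.

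For mRNA the values are the authors' own comparisons. For each transcript and time these are a signed fold, negative where the level was below control, and a q-value, both of them means. They were averaged over all rows of a gene. Calls of higher or lower needed a mean q under 0.05 together with a mean fold of 1 or more in size, and genes that passed on q with a smaller mean fold are given as mixed. Each mean was taken to stand for 4 comparisons of 1 treated with 1 control pool, which was inferred from the decimals of the folds. The 3 times share the control pools. The depth behind an mRNA fold is unknown, and since no value per library was used, folds carry no error. Because a q-value from a pair of pools compares those pools, it does not speak for all animals at a time. In whole tissue, fewer oligodendrocytes and less RNA per oligodendrocyte cannot be told apart.

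The members did not move as a block. At 12 h, 2 of the 9 were higher (Mobp and Cldn11), against 9.78% of the 16807 genes with a fold, and 2 were lower (Mbp and Olig1), against 7.25%. At 10 d, 3 were higher (Mobp, Cnp and Olig2), against 7.6% of 17244 genes, and 1 was lower (Olig1), against 10.9%. At 6 wk, 1 was higher (Olig2), against 9.27% of 15820 genes, and 2 were lower (Olig1 and Mag), against 11.7%. In addition 1, 1 and 2 members were mixed at the 3 times, where 4.14%, 3.4% and 3.6% of all genes were. In the authors' deposited table the median member fold was 0.10 at 12 h, 1.59 at 10 d and 0.28 at 6 wk, beside medians over all genes of 0.56, 0.68 and -0.71. Folds above 0 were held by 5, 8 and 5 of the 9 members, beside 57.7%, 57.0% and 44.0% of all genes with a fold. The count at 12 h is thus close to the share of all genes. Of 27 combinations of member and time, 11 were called. Olig1 was the member called at all 3 times, 7 members were called at 1 time or more, and Mog and Sox10 at none. Of all genes, 17%, 18.5% and 21% were called at 12 h, 10 d and 6 wk. Their share called at 1 time or more, or at all 3, was not computed, so these counts have no such share beside them.

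**Figure D1:**
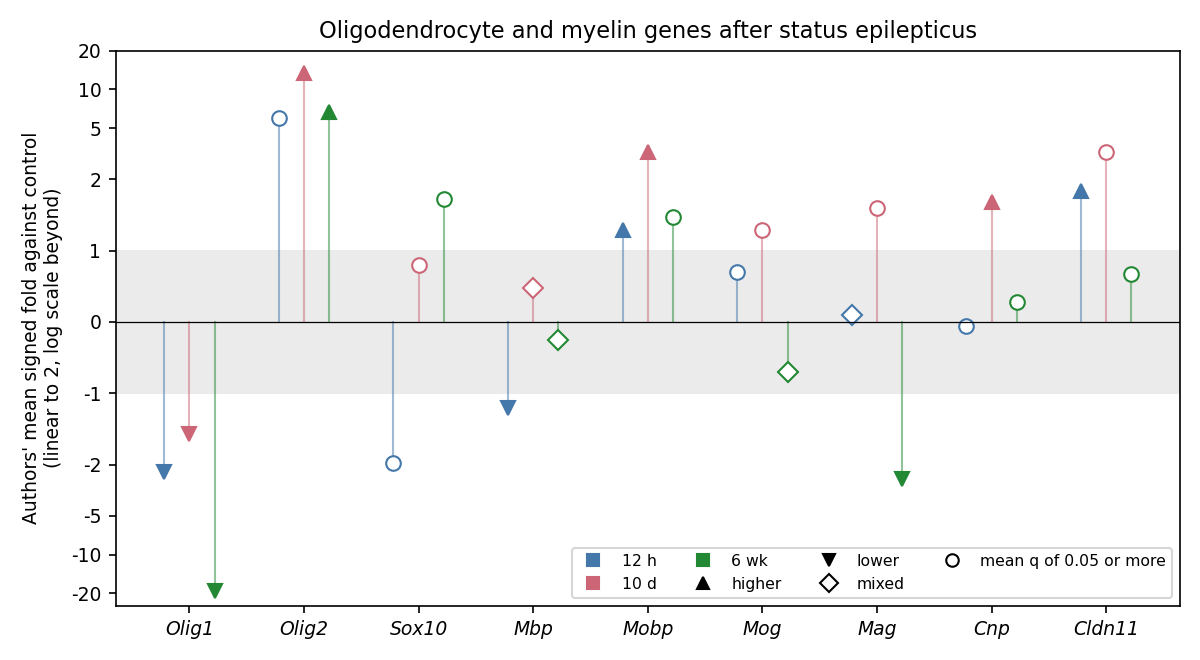
Mean signed fold of each of the 9 genes against control, from the authors' deposited table, on an axis that is linear up to 2 and logarithmic beyond, with time given by colour. Filled triangles mark genes called higher or lower, diamonds mixed genes and open circles genes with a mean q of 0.05 or more, and the grey band covers folds below 1 in size: Olig1 lies below the band and Olig2 above it at all 3 times, and the 6 myelin genes have their highest fold at 10 d.

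Mobp, Cnp and Olig2 were the members called higher at 10 d, and their promoters are printed for that reason, from 250 bases before to 50 bases after the gene start, as RefSeq gives them on build GRCm38.p6. The Mobp window is chr9:120149492-120149791 on the plus strand, that of Cnp is chr11:100574689-100574988 on the plus strand and that of Olig2 is chr16:91225300-91225599 on the plus strand. Capitals mark ACAAAG or ACAATG on either strand, the core letters of the motif that Sox10 and other SOX factors bind.
Mobp: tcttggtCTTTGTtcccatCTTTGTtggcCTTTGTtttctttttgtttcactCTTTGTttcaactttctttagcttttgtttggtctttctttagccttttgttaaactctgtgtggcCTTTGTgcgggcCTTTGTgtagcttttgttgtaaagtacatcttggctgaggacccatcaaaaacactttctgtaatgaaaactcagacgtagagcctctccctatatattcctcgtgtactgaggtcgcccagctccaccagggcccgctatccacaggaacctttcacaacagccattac
Cnp: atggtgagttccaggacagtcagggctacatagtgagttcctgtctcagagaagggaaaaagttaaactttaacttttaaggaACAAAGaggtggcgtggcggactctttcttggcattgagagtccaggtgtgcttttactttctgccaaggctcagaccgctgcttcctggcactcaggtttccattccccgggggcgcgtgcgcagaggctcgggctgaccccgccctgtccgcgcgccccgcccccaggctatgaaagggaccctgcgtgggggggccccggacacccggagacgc
Olig2: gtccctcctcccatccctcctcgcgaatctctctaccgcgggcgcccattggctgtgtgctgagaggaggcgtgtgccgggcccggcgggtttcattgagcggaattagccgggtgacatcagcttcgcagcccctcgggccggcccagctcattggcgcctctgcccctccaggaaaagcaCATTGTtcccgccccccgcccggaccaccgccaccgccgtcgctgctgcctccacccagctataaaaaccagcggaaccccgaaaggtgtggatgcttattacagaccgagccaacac
Mobp held 6 of these cores, all within the part upstream of the start, and Cnp and Olig2 held 1 each. A core stood in 28.6% of the 32851 promoters of the same length in the table, and 1 of the 32851, that of Mobp, held as many as 6, a number that was looked up after the Mobp sequence had been seen. Of the 6 members with a promoter printed or searched (Mog, Mag, Mobp, Cnp, Cldn11 and Olig2), 4 held a core, the fourth being Mag, in 2 of its 3 windows. Counted by window as in the share of all promoters, 5 of 8 held a core. The 2 Mag windows with a core overlap and hold the same core, so that site is counted in both. None of the 8 held the E-box letters CAGCTG or CAGATG, which 30.6% of all promoters held. These are matches of letters in a window and say nothing of whether a factor is bound there.

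Among the transcription factors, Olig1 and Olig2 had folds of opposite sign at every time. Olig1 (chr16:91270014-91272184, plus strand, mm9) had folds of -2.26 at 12 h (mean q 7.0e-06), -1.56 at 10 d (0.024) and -19.1 at 6 wk (9.8e-16) in the authors' deposited table. It was therefore lower at all 3 times, and its fold at 6 wk was larger in size than that of 84.5% of genes. If each mean is over 4 pairs, every pair of pools at 12 h and 6 wk had a q under 0.05. This is because 4 q-values with such a mean cannot exceed 4 times it. Olig2 (chr16:91225795-91228922, plus strand, mm9) had folds of 5.99 at 12 h (mean q 0.157), 13.4 at 10 d (5.7e-15) and 6.67 at 6 wk (0.027) in the authors' deposited table. It was higher at 10 d and 6 wk and did not pass at 12 h, although its fold then was larger in size than that of 75.2% of genes. The table gives no difference between the 3 times with a test, so no order of the times is drawn from these folds.

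Both genes lie on the same strand of chromosome 16, and 41091 bases separate the end of Olig2 from the start of Olig1. Opposite calls are common at that distance. Among neighbouring genes no more than 50000 bases apart that were both called, 48.4% of 364 pairs went opposite ways at 12 h, 44.4% of 412 at 10 d and 46.6% of 446 at 6 wk. Sox10 (chr15:78985344-78994920, minus strand, mm9) passed at no time, with folds of -1.98 at 12 h (mean q 0.168), 0.80 at 10 d (0.229) and 1.72 at 6 wk (0.100) in the authors' deposited table.

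Mbp and Mobp, the basic proteins of compact myelin, went different ways. Mbp (chr18:82644515-82755029, plus strand, mm9, over all its transcripts) was lower at 12 h, with a fold of -1.20 (mean q 0.032), and mixed at 10 d, with 0.48 (0.044), and at 6 wk, with -0.25 (0.019), in the authors' deposited table. Mobp (chr9:120058860-120085209, plus strand, mm9) was higher at 12 h, with a fold of 1.29 (mean q 0.0103), and at 10 d, with 3.23 (6.3e-08), while 6 wk gave 1.47 (0.196), in the authors' deposited table. The Mobp fold at 10 d was larger in size than that of 54.2% of genes, and the Mbp fold at 12 h than that of 33.7%, so neither was large for the tissue.

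The transcript rows show where the Mbp averages come from. Mbp has a far upstream start, used by the golli forms that are also made outside myelin, and a downstream start that gives the classic myelin forms. The 6 transcripts with the downstream start were lower at 12 h, with folds of -1.28 to -1.26 and mean q from 2.6e-04 to 0.00124 in the authors' deposited table. At 10 d the same 6 had folds of 0.81 to 0.82 and at 6 wk of -0.20 to -0.17, all mixed, in the authors' deposited table. NM_010777, which runs from the upstream start to the shared downstream end, had the same 3 calls. NM_001025245, which starts upstream and ends at 82728095, before most of the classic exons, was called at no time, with folds of -0.68 (mean q 0.284), -2.21 (0.157) and -0.84 (0.175) in the authors' deposited table. Since 7 of the 8 transcripts share most of their exons, they are not separate measurements of Mbp.

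At 6 wk the 6 downstream transcripts combined a fold near 0 with the mean q of 9.82e-16. Over 4 pairs, as inferred here, this limits the q of any pair of pools to 3.93e-15. On that reading all 4 pairs passed while their signed folds averaged to less than 1 in size. If a pair's signed fold cannot be below 1 in size, which the sources used here do not say, pools of the same group went opposite ways. The same held for Mag at 12 h, where a pair's q was at most 9.5e-04, and for Mog at 6 wk, where it was at most 1.8e-04. Over all genes, 2.74%, 2.41% and 2.43% were mixed with a mean q under 0.0125 at 12 h, 10 d and 6 wk, averaged over the rows of a gene. For a gene on 1 row this puts every pair under 0.05, but for a gene on more rows it need not.

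The Mobp transcripts differed from each other. The long forms NM_008614 and NM_001039364, which end at 120085209, had folds at 12 h of 2.12 and 2.04 with mean q of 9.4e-09 and 8.2e-09 in the authors' deposited table. The short form NM_001039365, which ends at 120078494, was mixed at 12 h, with a fold of 0.49 in the authors' deposited table, with a mean q of 0.0206. At 10 d all 3 forms were higher, the long ones at 2.76 and 2.37 and the short one at 3.89, in the authors' deposited table. At 6 wk the short form was higher, with a fold of 2.50 (mean q 0.00109), whereas the long forms had 0.93 (0.222) and -0.06 (0.561) in the authors' deposited table. The call of the short form at 6 wk was hidden in the mean over the 4 Mobp rows, and the difference between forms was not tested.

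**Figure D2:**
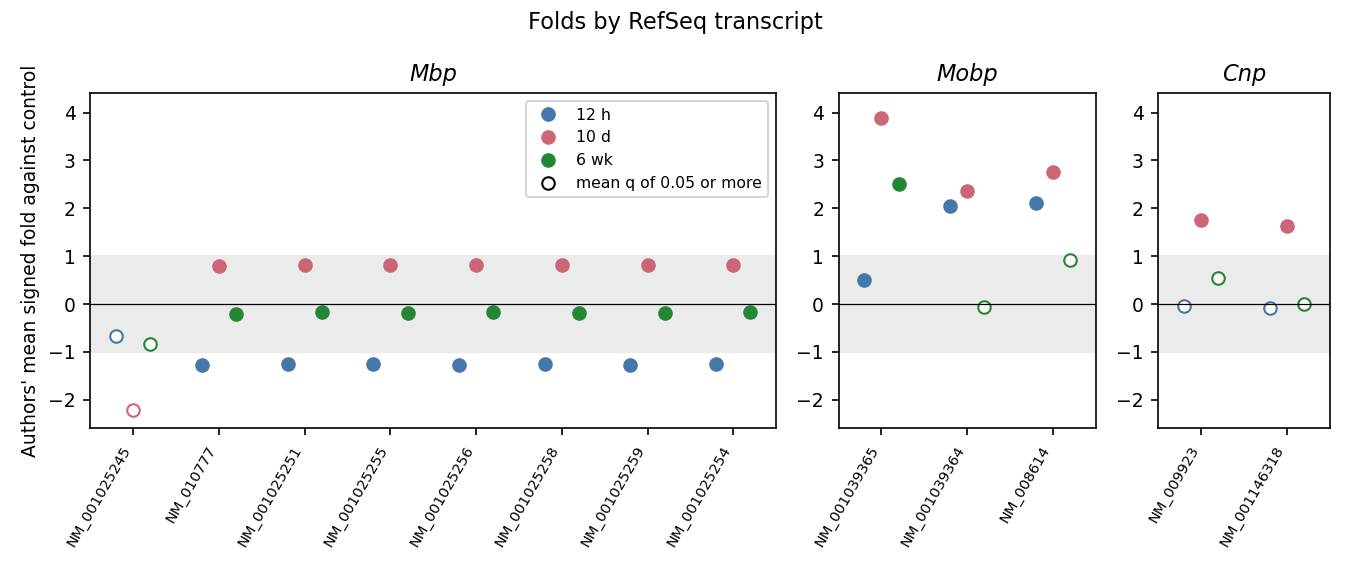
Mean signed fold against control per RefSeq transcript of Mbp, Mobp and Cnp, from the authors' deposited table, on a linear axis with time given by colour, filled where the mean q was under 0.05. The 7 Mbp transcripts that reach the downstream end overlie each other at each time and NM_001025245 stands apart, while the short Mobp form NM_001039365 is the highest of the 3 at 10 d and 6 wk and the lowest at 12 h.

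Of the proteins of the looser parts and the surface of the sheath, Cnp (chr11:100436253-100443052, plus strand, mm9) was higher at 10 d, with a fold of 1.68 in the authors' deposited table, with a mean q of 4.0e-05. Its folds were -0.06 at 12 h (mean q 0.211) and 0.28 at 6 wk (0.491) in the authors' deposited table, and its 2 transcripts had the same calls. Cldn11 (chr3:31048913-31063240, plus strand, mm9) was higher at 12 h, with a fold of 1.83 in the authors' deposited table, with a mean q of 0.0202. Its larger fold of 3.26 at 10 d missed the threshold at a mean q of 0.0574, and 6 wk gave 0.68 (0.161), in the authors' deposited table. A mean q can be lifted over the threshold by a single pair of pools, so this miss does not show that Cldn11 was at its control level.

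Mag (chr7:31684202-31699851, minus strand, mm9), the adhesion molecule next to the axon, was lower at 6 wk, with a fold of -2.58 in the authors' deposited table, with a mean q of 1.5e-06. It was mixed at 12 h, with 0.10 (mean q 2.4e-04), and at 10 d had a fold of 1.59 that did not pass (0.068), in the authors' deposited table. Mog (chr17:37147685-37160343, minus strand, mm9), the surface glycoprotein and autoantigen of demyelinating disease models, had folds of 0.70 at 12 h (mean q 0.405), 1.29 at 10 d (0.387) and -0.70 at 6 wk (4.5e-05, mixed) in the authors' deposited table. At 10 d, Mag, Mog, Cnp, Cldn11 and Mobp all had folds above 1, but 2 of these 5 passed.

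Genes of the wider lineage were called in both directions. In 8 lists of 107 oligodendrocyte-related genes, the 9 members included, 20 were higher and 15 lower at 12 h, 17 and 14 at 10 d, and 16 and 16 at 6 wk. That is 33.0%, 29.5% and 30.2% of the genes with a fold, where 17%, 18.5% and 21% of all genes were called. Without the 9 members the shares were 32.0%, 28.1% and 29.9%, and at 10 d these other genes had a median fold of -0.03 in the authors' deposited table, with 14 higher and 13 lower. Many listed genes are expressed by other cells as well, and the lists were chosen with earlier results of these data known.

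Among 15 proteins of the myelin sheath, 6 of them members, 5 were lower and 2 higher at 12 h, 1 and 3 at 10 d, and 5 and 1 at 6 wk. Pllp, the membrane protein plasmolipin, was lower at 12 h, with -12.4, and at 6 wk, with -79.8, and had -3.94 at 10 d (mean q 0.051), in the authors' deposited table. Bcas1, a marker of newly myelinating cells, was lower at 12 h (-2.53) and 6 wk (-1.75) and mixed at 10 d in the authors' deposited table. Plekhb1 was higher at 10 d, with a fold of 1.75, and lower at 6 wk, with -1.31, in the authors' deposited table.

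Enzymes of myelin lipid synthesis moved in both directions. Cers2, which makes the very long chain ceramides of myelin, was higher at all 3 times, with folds of 10.4, 88.9 and 45.6 in the authors' deposited table. Fa2h, which hydroxylates those fatty acids, was lower at 10 d, with -10.2, and at 6 wk, with -11.1, and had -3.08 at 12 h (mean q 0.16), in the authors' deposited table. Degs1, the desaturase that completes ceramide, was lower at 12 h (-2.14) and 6 wk (-9.32) in the authors' deposited table. Of 12 such enzymes with a fold, 1 was higher and 1 lower at 12 h, 3 and 2 at 10 d, and 1 and 2 at 6 wk. Elovl1, which elongates saturated fatty acids, was higher at 10 d with a fold of 61.7 in the authors' deposited table, with a mean q of 0.026. Its folds of -1.75 at 12 h (mean q 0.19) and -17.5 at 6 wk (0.37) did not pass, in the authors' deposited table.

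Pdgfra and Cspg4, which define precursor cells, passed at no time. Pdgfra had folds of 1.83 (mean q 0.17), -0.13 (0.088) and 0.41 (0.45), and Cspg4 had 1.03 (0.22), 0.28 (0.46) and 0.08 (0.46), at 12 h, 10 d and 6 wk in the authors' deposited table. Among 11 precursor genes, 3, 1 and 0 were higher, where 9.78%, 7.6% and 9.27% of all genes were. In the same list 1, 1 and 1 were lower, where 7.25%, 10.9% and 11.7% of all genes were. Counts of 1 in 11 lie close to these shares. Lhfpl3 was higher at 12 h, with 16.1, and 10 d, with 35.5, and Tnr, the matrix protein tenascin R, was lower at both, with -1.94 and -9.55, in the authors' deposited table. Pdgfa, the growth factor of precursors, was lower at 12 h (-2.95) and 10 d (-54.4) in the authors' deposited table. S1pr5, the sphingosine phosphate receptor of mature oligodendrocytes, was lower at all 3 times, with -27.2, -36.4 and -37.2, in the authors' deposited table.

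Of 17 lineage transcription factors, the 3 members included, 3, 2 and 4 were higher and 2, 4 and 2 lower at the 3 times. Hes5, a Notch target that holds precursors back from differentiating and is also made by astrocytes, was lower throughout, with folds of -142, -64.0 and -56.5 in the authors' deposited table. Id2, an inhibitor of basic helix-loop-helix factors such as Olig1 and Olig2, was higher at 12 h (5.11) and 6 wk (2.33) in the authors' deposited table. Zfp536 was higher at 10 d, with 4.88, and 6 wk, with 11.6, in the authors' deposited table. Sirt2, a deacetylase enriched in myelin, was lower at all 3 times, with -1.54, -6.43 and -1.49 in the authors' deposited table.

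Among the 10 genes listed for myelin breakdown and glial stress, 5, 4 and 3 were higher, against 9.78%, 7.6% and 9.27% of all genes. None of the 10 was lower, where the shares of all genes, 7.25%, 10.9% and 11.7%, come to about 1 gene in 10. C4b, a complement component, had the largest folds of those called at all 3 times, at 20.4, 42.4 and 63.1, in the authors' deposited table. Serpina3n, a protease inhibitor of reactive glia, had folds of 1.42, 7.53 and 17.1, and the lipid carrier Apoe 1.91, 6.60 and 2.35, all called higher, in the authors' deposited table. These genes are made by astrocytes and microglia as well as by oligodendrocytes.

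**Figure D3:**
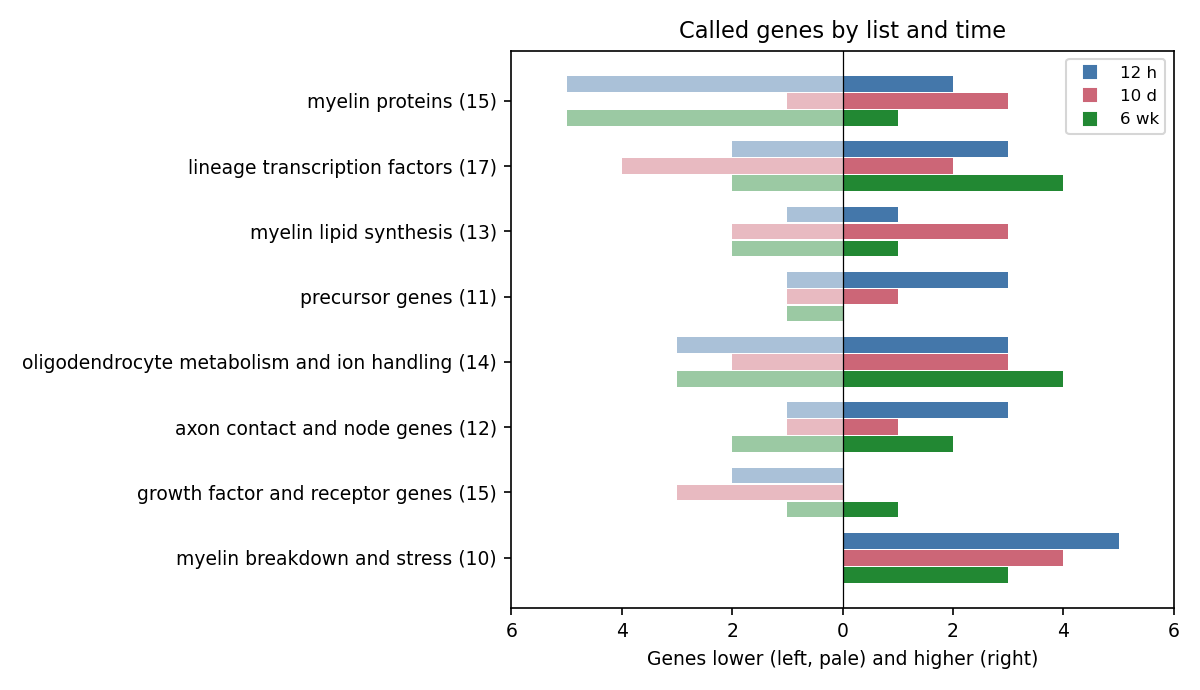
Number of genes called lower (pale bars, to the left) and higher (full bars, to the right) in each of 8 oligodendrocyte-related lists, with time given by colour and the size of each list in brackets. Myelin proteins have 5 genes lower at 12 h and at 6 wk and 1 at 10 d, and the list of myelin breakdown and stress has no gene lower at any time.

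Markers of other hippocampal cells moved in the same comparisons, and their part in the results above was not tested. Of 7 astrocyte markers, 2, 2 and 3 were higher and 1 was lower, at 6 wk, with Gfap at folds of 2.34, 6.35 (mean q 0.097) and 11.8 in the authors' deposited table. Of 7 microglia markers, 0, 2 and 2 were higher and 1, 1 and 0 lower. Of 7 neuron markers, 2, 0 and 1 were higher and 1, 1 and 4 lower, the 4 at 6 wk, where 11.7% of all genes were lower. Of 4 Schwann cell markers, 1, 2 and 0 were higher and none was lower. Of 4 markers of choroid plexus, a tissue next to the hippocampus, 2, 1 and 0 were higher and none was lower, and Folr1 and Clic6 passed at no time. Ttr, which is secreted by choroid plexus, was higher at 12 h, with 179, and 10 d, with 558, and had 57.7 at 6 wk (mean q 0.053) in the authors' deposited table. Levels in single libraries were not used, so the summed level of a marker list is not given here.

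The deposited table also holds counts of tags matching mature miRNAs in 2 small RNA libraries of each group, and nothing in the labels ties these libraries to the mRNA pools. miRNAs known to act on the lineage were followed through a list of 14 names, which matched 31 mature miRNAs in the table, of which 20 passed the filter on low counts. Libraries held 545672 to 3325374 such tags, and levels are given as CPM, counts per 1000000 tags after TMM scaling. The mature forms that the results turn on are shown with the seed, bases 2 to 8, in capitals, as RefSeq gives them on GRCm38.p6.
miR-23a-3p: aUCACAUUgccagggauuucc
miR-27a-3p: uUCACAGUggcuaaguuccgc
miR-7a-5p: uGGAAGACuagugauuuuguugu
miR-219a-5p: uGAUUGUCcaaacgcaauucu
The seeds of miR-23a-3p and miR-27a-3p begin alike, but no seed is shared by any of the 4. The miRNA called miR-219-5p in the table is miR-219a-5p in RefSeq by position. In mouse, miR-219 promotes the maturation of precursors by lowering the receptor Pdgfra, and miR-23a has been linked to myelin gene expression.

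At 6 wk, 3 of the 20 were higher and 3 lower, where 6.4% and 4.03% of 422 miRNAs tested were. miR-23a-3p stood at 498 and 536 CPM in control, 438 and 383 at 12 h, 619 and 697 at 10 d, and 870 and 1005 at 6 wk. Both 6 wk libraries lay above all others, and miR-23a-3p was higher at 6 wk, with a log2 fold change of 0.86 (FDR 0.0027, edgeR). miR-7a-5p stood at 799 and 1089 in control, 1129 and 1183 at 12 h, 874 and 714 at 10 d, and 417 and 572 CPM at 6 wk. Both 6 wk libraries lay below all others, and miR-7a-5p was lower at 6 wk, with a log2 fold change of -0.93 (FDR 0.0106, edgeR). miR-27a-3p, at 219.5 and 279 CPM in control and 461 and 440 at 6 wk, was higher by 0.85 on the log2 scale (FDR 0.0106, edgeR). miR-19b-3p was higher by 0.99 (FDR 0.0164, edgeR), and miR-7a-2-3p and miR-138-1-3p had log2 fold changes of -0.78 (FDR 0.0339) and -0.77 (FDR 0.0345), both lower. The call of miR-23a-3p held with each library left out in turn (FDR 0.00297 to 0.0231, edgeR). That of miR-27a-3p was lost without control library 7 (FDR 0.0805, edgeR) or 6 wk library 5 (FDR 0.116), and that of miR-7a-5p without control library 8 (FDR 0.0769) or 6 wk library 5 (FDR 0.0832). The calls of miR-19b-3p, miR-7a-2-3p and miR-138-1-3p were lost in DESeq2 (adjusted p 0.203, 0.112 and 0.206) and with some libraries left out, and that of miR-138-1-3p also without the filter on low counts (FDR 0.0582, edgeR). For miR-19b-3p these were control 7, control 8 or 6 wk 5 (FDR up to 0.127, edgeR), for miR-7a-2-3p control 7, control 8 or 6 wk 6 (FDR up to 0.218), and for miR-138-1-3p control 7, 12 h 2, 6 wk 5 or 6 wk 6 (FDR up to 0.158). In DESeq2, 2 of the 20 were higher at 6 wk and 1 lower.

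**Figure D4:**
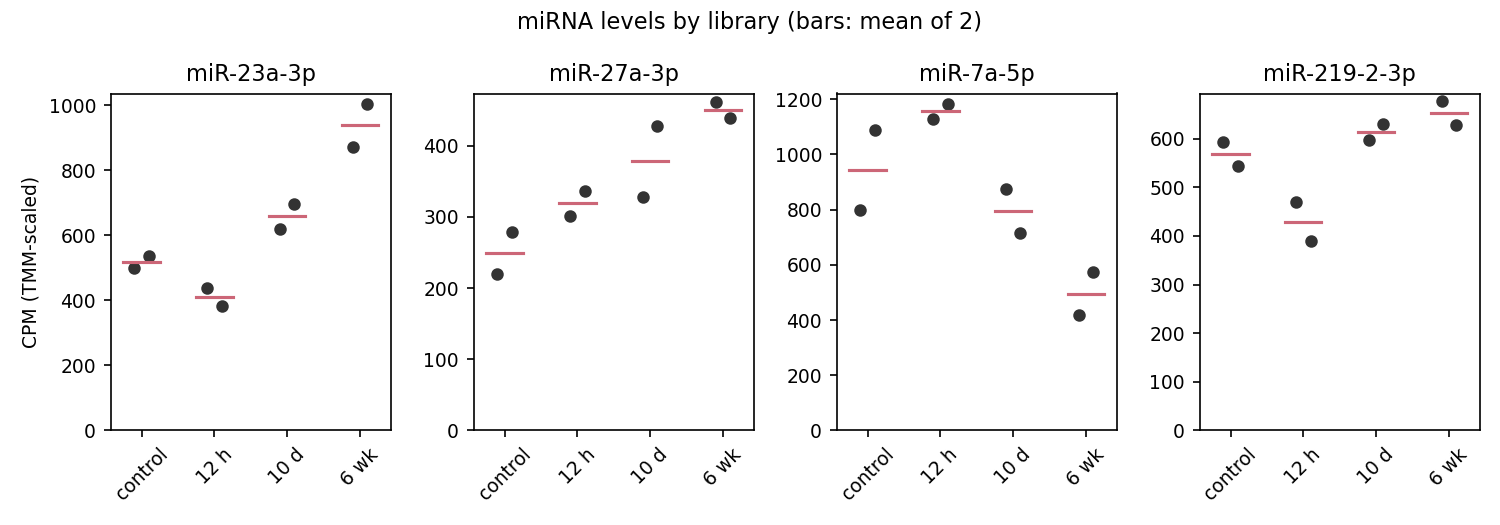
CPM of 4 miRNAs in each of the 8 small RNA libraries, with group on the horizontal axis, a point for each library and a bar for the mean of 2. The 6 wk libraries lie above both control libraries for miR-23a-3p and miR-27a-3p and below them for miR-7a-5p, and for miR-219-2-3p the 12 h libraries are the lowest, at 470 and 389 CPM.

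At 12 h, 1 of the 20 was called, miR-145a-3p, higher by 1.26 on the log2 scale (FDR 0.0365, edgeR), where 0.474% of miRNAs were called and 0.237% were higher, and at 10 d none was, where 0.948% were called. The call of miR-145a-3p held without 10 d library 4 or 6 wk library 6 and was lost without any of the other 6 libraries, with FDR from 0.0372 to 0.277 in edgeR, and DESeq2 called none of the 20 at 12 h or 10 d. At an unadjusted p under 0.05 edgeR gave 8, 5 and 8 of the 20 at 12 h, 10 d and 6 wk, or 40%, 25% and 40%, beside 19.9%, 20.1% and 27.5% of all miRNAs tested. miR-219-5p was scarce, at 1.94 and 3.98 CPM in control and 5.07 to 8.67 in the other libraries, and passed at no time, with log2 fold changes of 1.14, 1.21 and 1.00 (FDR 0.276, 0.265 and 0.296, edgeR). The more abundant miR-219-2-3p also passed at no time against control, with -0.41, 0.11 and 0.20 (FDR 0.144, 0.742 and 0.358, edgeR). Compared directly with 12 h in edgeR, 6 of the 20 differed at 6 wk, where 21.8% of all miRNAs tested did, with 3 higher (13% of all) and 3 lower (8.77% of all). miR-338, a further miRNA of the lineage, was not analysed here.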

How the data were processed

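Polyadenylated RNA of mouse hippocampus was measured in 8 libraries, 2 per group. Reads were mapped to mm9 with Bowtie, per the submitters' processing notes. Unique reads were then counted over RefSeq exons, per the series' design text, but those counts were not used. For each transcript row and time the authors deposited a signed fold and a q-value, both averages per the file headers. The labels do not say how each was computed. Non-zero folds were whole millionths when multiplied by 4 (100% within a tolerance of 0.02), as means of 4 pairs would be. The number of pairs was inferred from this, and the q-values were taken to be means over the same pairs. A fold of 0 was taken as no fold. The authors also deposited unscaled counts of tags per mature miRNA in 8 columns, whose names give the time and a library number that only names the library. How those libraries were made is not stated. A further 24 columns of values per library were not used.

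Folds and q-values were averaged over all rows of a gene symbol, and nothing was refitted, because the values are comparisons. Tag counts were tested with edgeR 4.0.16 in R 4.3.3 (quasi-likelihood, TMM, filterByExpr, all 4 groups in 1 fit, Benjamini-Hochberg over the 422 miRNAs tested, FDR under 0.05), with DESeq2 1.42.0 as an alternative. On simulated data for 6 wk against control, 60 of 422 miRNAs were changed 4-fold. Over 5 runs edgeR recovered 91.7% to 100% of them and called 0.276% to 1.38% of the others. The named miRNAs called against control had log2 fold changes from -0.93 to 1.26, all smaller in size than 4-fold. The simulation therefore does not show how often changes of their size are recovered. With 2 libraries per group, p-values measure the spread between these libraries, which may be technical.

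The members, the 13 gene lists, the miRNA list and the motifs were chosen with earlier results of these data known. Named genes were all members, listed oligodendrocyte genes called at 2 or more times, the 6 largest called folds at each time, and a few single genes, among them Pdgfra and Cspg4. Not all are printed, and some are not reported here. A RefSeq promoter was used for 6 of the 9 members; those of Mbp, Olig1 and Sox10 were not used here. Motifs were searched on both strands in windows of 300 bases. Starts of gene rows count from 0 and are given here from 1: of 13109 gene positions that share their end with a GENCODE transcript, 7850 had its start when counted from 0 and 606 when counted from 1. Starts of miRNAs in the table count from 1. Rbfox3 and Map2 were found under older symbols.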

Additional observations from a re-analysis of the deposited data

Results flagged for a closer look

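The table holds columns named for 1 h and 6 h, times with no labelled sample, so they enter no comparison above. Each mean at 1 h was taken to stand for 2 pairs, and at 6 h for 4, again from the decimals of the folds. In the authors' deposited table Mbp was higher in both, with folds of 1.45 at 1 h (mean q 1.7e-15) and 1.29 at 6 h (8.2e-09). At 1 h Mag had a fold of -1.50 (mean q 1.5e-11), Cnp -1.21 (2.3e-04) and Cldn11 -2.34 (1.7e-15), all lower, in the authors' deposited table. Cldn11 was higher at 6 h, with 1.48 (mean q 0.0081), in the authors' deposited table. At 1 h 11.3% of all genes were higher and 16.1% lower, and at 6 h 5.33% and 8.91%.

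For 6 miRNAs of the list the response at 6 wk differed from that at 12 h, tested directly between these groups in edgeR with adjustment over 422 miRNAs. With 3 of the 20 higher and 3 lower, they compare with 13% and 8.77% of the 422. The difference in log2 level, 6 wk minus 12 h, was 1.19 for miR-23a-3p (FDR 0.00045) and -1.22 for miR-7a-5p (FDR 0.0024), with both 6 wk libraries beyond both 12 h libraries, and both held with each library left out in turn. It was 0.75 for miR-145a-5p (FDR 0.0145), 0.61 for miR-219-2-3p (FDR 0.0127), -0.50 for miR-138-5p (FDR 0.0183) and -0.46 for miR-9-3p (FDR 0.0328). miR-145a-5p was lost without 12 h library 1 or 2 or 6 wk library 5 (FDR up to 0.159), and miR-219-2-3p without 12 h library 2 or 6 wk library 5 (FDR up to 0.154). miR-138-5p was lost without 12 h library 1 or 2 or 6 wk library 6 (FDR up to 0.119), and miR-9-3p without 12 h library 2 or 6 wk library 5 or 6 (FDR up to 0.266).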

How the results depend on the processing

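For mRNA, 27 combinations of member and time were recomputed under 8 alternatives, of which 1 was chosen after seeing the data (each transcript counted once). Of 216 values, 199 kept their direction and side of the threshold, 10 lost a call, 7 gained one and 0 changed direction. Most of this was fixed in advance. An alternative that only moves a threshold cannot change a direction, and for a member on 1 row the choice of rows changes nothing. A direction could turn only for Mbp, Mobp and Cnp, under the alternatives that choose among rows. Of the 11 member calls, 5 held under all alternatives: Olig1 at 12 h and 6 wk, Olig2 and Mobp at 10 d, and Mag at 6 wk. With mean q under 0.01 the members called at 12 h fell from 4 to 1, as they did with a fold of at least 2 in size, which left 2 at 10 d in place of 4. With no fold threshold, which counts mixed genes as calls, 5 members passed at 6 wk in place of 3. The row of lowest mean q made Mobp higher at 6 wk. The wider list was recounted under 5 of these alternatives, and its totals stayed within 1.5 times, but with mean q under 0.01 its lower genes at 10 d went from 14 to 8.

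For miRNAs, edgeR called 2, 4 and 44 at the 3 times. DESeq2 called 13, 7 and 45, and no filter on low counts gave 25, 29 and 61. With each library left out in turn the counts ranged from 0 to 4 at 12 h, from 3 to 8 at 10 d and from 20 to 52 at 6 wk, the lowest without 6 wk library 5. Among the miRNAs named, directions turned in small differences at 10 d: with each library left out in turn, miR-7a-5p ran from -0.47 to 0.0013, the latter without control library 8, and miR-138-1-3p from -0.11, without control library 8, to 0.22, with -0.05 without 10 d library 3. The causes were not tested. No paired analysis was possible because the mRNA values belong to no library and the small RNA columns carry library numbers and not the replicate letters of the labels. The depth of 10 d library 4, 545672 miRNA tags, limits what scarce miRNAs can show.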

Other observations

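The table pairs small RNA regions with regions named for CREB. Their stated offsets equal the distance to the small RNA region in 99.99% of rows and to the gene in 7.82%, so they do not give a distance to the gene on the same row. By position on mm9, Mbp was the only one of the 9 members with such a region listed within 2000 bases. It had 2 listed regions, the nearest 1271 bases past its end. Whether these are separate sites was not tested. The nearest listed region to Sox10 lay 20523 bases away and the nearest to Mog 26593. The share of all genes with a listed region within 2000 bases was not computed, so the count for the members has no share beside it. Only regions paired with small RNA regions are listed, so the lack of one near a member does not show that it has no CREB region.

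Several listed oligodendrocyte genes not named above had calls at 1 or more times, and these calls are already part of the list counts given above. Omg, the oligodendrocyte myelin glycoprotein that limits axon growth, was lower at 12 h, with a fold of -2.61, and at 6 wk, with -5.10, in the authors' deposited table. Its receptor partner Lingo1 was higher at 12 h (1.57) and 10 d (1.51) in the authors' deposited table. Kcnj10, the potassium channel shared by oligodendrocytes and astrocytes, was lower at 12 h, with -1.50, and higher at 6 wk, with 1.88, in the authors' deposited table. Enpp2, the lysophospholipase autotaxin, was lower at 10 d (-1.38) and 6 wk (-2.13) in the authors' deposited table. Cryab, a small heat shock protein of glia, was higher at 12 h, with 3.01, and 10 d, with 5.73, in the authors' deposited table. Ank3, the ankyrin of nodes and axon initial segments, was higher at 12 h (1.40) and 6 wk (3.30) in the authors' deposited table.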
